A study of Arabidopsis thaliana with 6 samples.

Results

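The 80 small nuclear and small nucleolar RNA features comprised every row of the deposited gene table whose biotype was snRNA or snoRNA, 13 snRNA and 67 snoRNA rows among 23640 features. They were read in rRNA-depleted total RNA from whole Arabidopsis thaliana seedlings of 14 days, grown in vitro in the col background. The groups were 3 wild-type (col) libraries and 3 libraries of the atrx-1 mutant in the same background. ATRX is a chromatin remodeller of the SNF2 family that works with the histone variant H3.3. Nothing in the labels says that the replicates were separate cultures, so p-values measure only the spread between these libraries, which may be technical. The labels do not describe the lesion in atrx-1.

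Small nuclear RNAs are the RNA core of the spliceosome: U1 pairs with the 5′ splice site, U2 pairs with the branch point, U4 escorts U6 into the spliceosome as its pairing partner, and U12 does the work of U2 for a rare class of introns. Small nucleolar RNAs guide chemical modification of ribosomal RNA, box C/D RNAs for 2′-O-methylation and box H/ACA RNAs for pseudouridylation, whereas U3 is a box C/D RNA needed for cleavage of the ribosomal RNA precursor. Plant U snRNA genes and U3 genes share a compact promoter with an upstream sequence element and a TATA box, and in plants U3 and U6 are made by RNA polymerase III and the other U RNAs by RNA polymerase II. Many plant box C/D RNAs lie in tandem and are cut out of a common precursor.

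Counts of the class were concentrated in a few genes. Over the 6 libraries the 80 features held 102155 counts, of which AT1G08115 alone held 71.4% and the 12 features with the largest counts held 97.2%. The table gives AT1G08115 no name, and the RefSeq annotation of TAIR10.1 calls it U1.5. It lies on the minus strand of chromosome 1 from 2538076 to 2538237 in the table's coordinates (build TAIR10), and is called U1 below. The other abundant members were U4.2, the U2 features U2.3, U2.7, U2.4, U2.5 and U2.6, both U3 features U3B and U3D, U12, and the snoRNAs AT2G05765 and AT3G47348. A count of 0 in all 6 libraries was found for 3 members, U6acat, U6-29 and the box C/D RNA U49.1.

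The sequences of the RNAs that carried most counts are shown because they identify the unnamed feature and the functional part of each RNA. In U1 the capitals mark the 5′ end that pairs with the 5′ splice site. In U2.5 (chromosome 5, plus strand, 2975014 to 2975208) they mark the stretch that pairs with the branch point. Both were read from the RefSeq genome TAIR10.1, whose nuclear chromosomes have the lengths of TAIR10, at the RefSeq RNA positions, which for U1 are 2538074 to 2538238.
U1: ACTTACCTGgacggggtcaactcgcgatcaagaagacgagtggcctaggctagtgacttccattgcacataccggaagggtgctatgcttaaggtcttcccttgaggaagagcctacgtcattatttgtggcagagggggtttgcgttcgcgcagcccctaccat
U2.5: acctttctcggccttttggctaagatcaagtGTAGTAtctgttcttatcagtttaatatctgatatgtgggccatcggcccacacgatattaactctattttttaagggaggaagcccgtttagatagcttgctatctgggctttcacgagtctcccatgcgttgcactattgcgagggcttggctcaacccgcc

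These RNAs belong to families of near-identical genes, most of which have no row in the table used here. A BLAST search of the nuclear chromosomes found 8 other copies of U1 with at least 90% identity over its length (90.3% to 97.6%), and 7 of them fell in no row of the table. U4.2 had 6 other copies, none of them in a row. U2.5 had 15 other copies (91.8% to 96.4% identity), 10 of them outside all rows, and U3 had 6, of which 2 were outside. In 4 places a U1 copy stood upstream of a U4 copy on the same strand, with a gap of at most 208 nt. The sources used here do not say how reads matching several copies were counted, so the level of a single copy is uncertain. Of the tested members, 6 also overlap a protein-coding row: U4.2, U2.3, U2.4, U2.5, U2.7 and U3B. The strand setting is not given either, so the part of mRNA reads, or of reads left out as ambiguous, in these rows is not known. The values below are those of the row named.

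One U1 copy lies inside a protein-coding row. The row AT4G23420, annotated in RefSeq as a Rossmann-fold protein gene, spans the copy at chr4:12225614-12225778 (plus strand, 95.8% identity), in the first exon of a RefSeq transcript. Its level was 1805, 757 and 778 CPM (the count relative to a TMM-scaled library total) in wild-type libraries 1, 2 and 3, and 286, 161 and 226 CPM in the mutant libraries. The genotypes did not overlap, and the log2 fold change was -2.31 ± 0.35 (SE, edgeR quasi-likelihood test, adjusted p = 0.0434). Reads of the U1 copy and of the mRNA cannot be told apart in this row.

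The upstream sequence element was present in the abundant U RNA genes. Its core, CCCACATCG, was looked for on both strands of the 150 nt before the RNA, with U3 windows ending at the stretch that U3B and U3D share. It was found for 10 of 13 snRNA features, among them all 8 with at least 100 counts, and for both U3 features, but for 2 of the other 65 snoRNA features (SNOR105 and SNOR108). Of 23391 nuclear features, 0.115% had it in the 150 nt before the start of the row, the window for all shares of all features given here. For U2, U3 and U4.2 the RNA begins inside the row, so their windows are not placed like these. The box TATAAA was in the window of 7 of the 8 abundant snRNA features and of 33.7% of all features, and TATATA, which can overlap it, was in the windows of both U3 features and of 21.4% of all features. The telo box AAACCCTA was in 5 of the 65 other snoRNA windows and in none of the snRNA and U3 windows, against 4.30% of all features. The site II element TGGGCC was in 2 of the 13 snRNA windows, in 1 of the 2 U3 windows and in 0 of 65 other snoRNA windows, against 12.5% of all features.

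Promoters of the 6 U RNA rows with the largest counts are printed to show this shared layout, each from 6 nt before the element, with the element and the TATA-type box in capitals. They lie at chr1:2538231-2538320 (U1, minus strand), chr3:2178331-2178420 (U4.2, minus), chr3:21397611-21397700 (U2.3, minus), chr5:21888222-21888311 (U3B, plus), chr5:21945587-21945676 (U3D, minus) and chr5:24713596-24713685 (U2.7, minus), all in TAIR10.1.
U1: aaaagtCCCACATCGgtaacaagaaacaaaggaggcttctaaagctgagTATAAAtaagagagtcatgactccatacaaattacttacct
U4.2: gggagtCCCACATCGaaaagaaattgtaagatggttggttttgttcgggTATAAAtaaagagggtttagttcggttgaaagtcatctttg
U2.3: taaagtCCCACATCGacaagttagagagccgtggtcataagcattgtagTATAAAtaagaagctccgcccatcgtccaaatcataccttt
U3B: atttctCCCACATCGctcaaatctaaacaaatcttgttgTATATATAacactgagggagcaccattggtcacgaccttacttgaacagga
U3D: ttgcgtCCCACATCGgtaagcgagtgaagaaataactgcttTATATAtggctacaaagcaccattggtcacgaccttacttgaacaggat
U2.7: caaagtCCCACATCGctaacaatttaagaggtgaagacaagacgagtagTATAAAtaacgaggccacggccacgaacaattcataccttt

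The start of the element preceded the start of the TATA-type box by 43 nt in U1, U4.2, U2.3 and U2.7, and by 33 nt in U3B and 35 nt in U3D. The shorter distance in U3 is the known arrangement of plant genes read by RNA polymerase III. No exact TATAAA or TATATA was found in U12, which has the element 76 nt before its RNA.

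**Figure D1:**
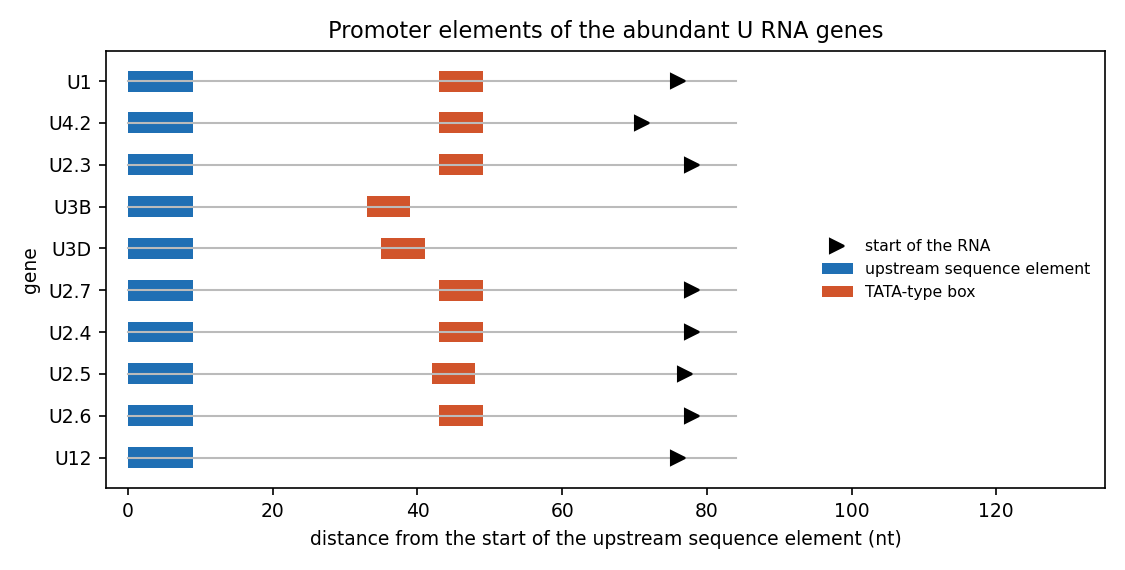
Position of the upstream sequence element (blue), the TATA-type box (orange, TATAAA or TATATA) and the RefSeq or aligned RNA start (triangle), in nt from the start of the element, for the 10 abundant U RNA genes. The box starts 42 or 43 nt after the element in the U1, U2 and U4 genes and 33 or 35 nt after it in the U3 genes, for which no RNA start is drawn.

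Libraries differed widely in depth and in their make-up. Totals ranged from 936243 counts in wild-type library 2 to 14001726 in mutant library 1, and 49 to 69 of the 80 members had at least 1 count in a library. The ATRX gene itself (AT1G08600) stood at 4.82, 5.46 and 5.86 CPM in wild type and at 1.24, 0.721 and 1.91 CPM in the mutant. These levels rest on few counts, 16, 5 and 18 in wild type and 18, 3 and 6 in the mutant. Marker genes of the photosynthetic shoot summed to 6974, 13786 and 11194 CPM in wild-type libraries 1, 2 and 3. In the mutant libraries they summed to 10564, 11033 and 11564 CPM. Wild-type library 2 was thus the highest and wild-type library 1 the lowest of all 6 libraries. Flower markers summed to 0.24 to 2.19 CPM. Root markers summed to 11.4, 6.56 and 10.8 CPM in wild type and to 5.01, 5.53 and 5.74 CPM in the mutant. They were lower in every mutant library and lowest within wild type in library 2. A count of 3 equals 3.28 CPM in wild-type library 2, so its root value rests on few counts. The U RNAs below have the same low wild-type library, and the part of root or shoot tissue in their levels was not tested. Trends with feature length separated the genotypes. Per doubling of length, the log2 level relative to the other libraries changed by -0.233, -0.0636 and -0.168 in wild type but by 0.146, 0.159 and 0.16 in the mutant, so shorter features were relatively lower in the mutant libraries. Members are short, and the fit with each library's trend removed is given after the main values. In whole seedlings, fewer cells of a type and less RNA per cell cannot be told apart.

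U1 dominated in both genotypes and was lower in the mutant libraries. Its raw counts were 29027, 2484 and 12392 in wild-type libraries 1, 2 and 3 and 22555, 2801 and 3729 in the mutant libraries. Scaled to depth these were 8735, 2714 and 4037 CPM in wild type and 1548, 673 and 1189 CPM in atrx-1. All mutant libraries lay below all wild-type libraries, although wild type itself ranged over 3.22-fold. The mean was 5162 ± 3164 CPM (SD, n = 3) against 1137 ± 440 CPM, a log2 fold change of -2.18 ± 0.42 (SE), or 4.54-fold, which did not pass the threshold of 0.05 (edgeR quasi-likelihood test, adjusted p = 0.0568).

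U4.2, the partner of U6, differed less. It stood at 537, 145 and 463 CPM in wild-type libraries 1, 2 and 3 and at 214, 93 and 152 CPM in the mutant libraries. Wild-type library 2 lay within the mutant range, so the groups overlapped. The log2 fold change was -1.33 ± 0.41 (SE, edgeR quasi-likelihood test, adjusted p = 0.115).

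In the 5 abundant U2 features wild-type library 2 stood within or below the mutant range. The largest, U2.3, was at 545, 60.1 and 291 CPM in wild type and at 111, 41.6 and 65.7 CPM in atrx-1. Summed over all 6 U2 features the level was 1231, 144 and 648 CPM in wild type and 272, 104 and 160 CPM in the mutant. Wild-type libraries 1 and 3 lay above all mutant libraries, and wild-type library 2 lay between mutant libraries 2 and 3. With the copies summed to 1 value, which was added after the data were seen, the log2 fold change was -1.92 ± 0.57 (SE, edgeR quasi-likelihood test, adjusted p = 0.102). The 5 tested copies had log2 fold changes from -2.06 (U2.4) to -1.65 (U2.5), none of them past the threshold.

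Some copies of U2 kept nearly fixed proportions. U2.3 made up 44.3%, 41.7% and 44.9% of U2 counts in the wild-type libraries and 40.7%, 40.1% and 41.1% in the mutant libraries, and U2.7 stayed between 16.3% and 18.9%. U2.5 varied more, with 12.2%, 18.2% and 12.2% in wild type and 16.3%, 14.6% and 14.2% in the mutant. U2.6 held 3.03% of U2 counts in wild-type library 2, against 10.1% to 13% in the other 5 libraries. The low share rests on 4 of 132 counts. U2.2 held under 1% of U2 counts in each library, with 31 counts in all. It was the copy whose level in wild-type library 2 (1.09 CPM) lay above all mutant libraries (0.240 to 0.892 CPM), but that level rests on 1 count.

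U3, which acts in the nucleolus and not in splicing, also had wild-type library 2 apart from the other wild-type libraries, over a wider range. U3B was at 340, 12 and 153 CPM in wild-type libraries 1, 2 and 3 and at 78.7, 17.8 and 30.9 CPM in the mutant libraries. U3D was at 232, 6.56 and 96.4 CPM in wild type and at 68.1, 13.7 and 19.1 CPM in atrx-1. For both RNAs wild-type library 2 was the lowest of all 6 libraries, and wild type ranged over 28.3-fold for U3B and 35.4-fold for U3D. Over a shared stretch of 209 nt the features differ at 10 positions, so reads may be split between them. Summed, U3 had a log2 fold change of -1.88 ± 0.78 (SE, edgeR quasi-likelihood test, adjusted p = 0.210).

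U12, of the minor spliceosome, was at 74.9, 7.65 and 34.2 CPM in wild type and at 16.1, 7.45 and 12.4 CPM in the mutant. Wild-type library 2 again lay within the mutant range, there with 7 counts. The log2 fold change was -1.78 ± 0.48 (SE, edgeR quasi-likelihood test, adjusted p = 0.0841).

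U6, by contrast, was almost absent from the counts. U6-26 and U6-1 had 3 and 2 counts over all libraries, and U6-29 and U6acat had 0. A count of 0 allows up to 3.28 CPM in the shallowest and 0.206 CPM in the deepest library, by a limit of 3 counts that covers counting error only. U6-26 had 7 other copies and U6-1 had 6 in the genome with at least 90% identity, and both table rows overlap protein-coding rows. The part of near-identical copies in these counts was not tested.

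**Figure D2:**
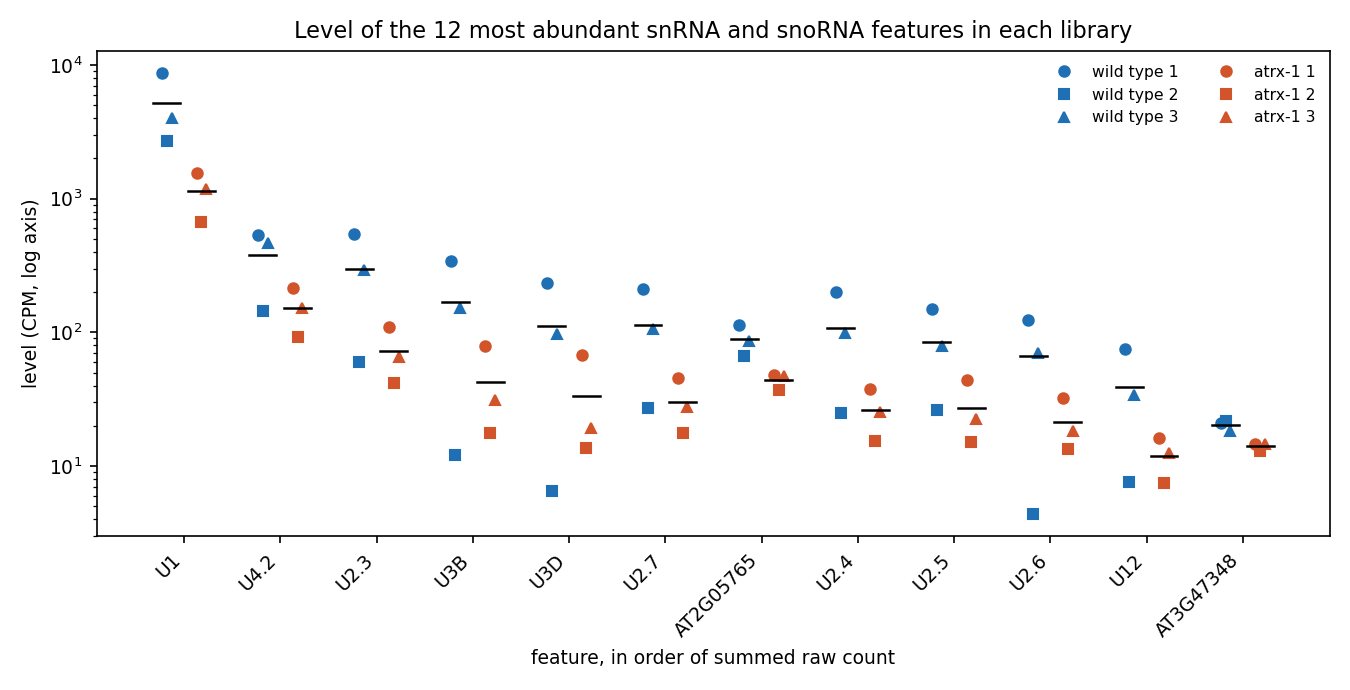
Level of the 12 members with the largest summed counts in each library, in CPM on a log axis, with wild type in blue, atrx-1 in orange, marker shape for the replicate number and a black bar for the mean. Wild-type library 2 (blue square) lies within or below the mutant range for U4.2, U2, U3 and U12 but above it for U1, AT2G05765 and AT3G47348.

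Among the guide snoRNAs, AT2G05765 had the largest counts. It was at 114, 66.7 and 86.3 CPM in wild-type libraries 1, 2 and 3 and at 48.1, 37.2 and 47.2 CPM in atrx-1. The groups did not overlap. The log2 fold change was -1.03 ± 0.22 (SE, edgeR quasi-likelihood test, adjusted p = 0.0611), that is 89.1 ± 24 CPM (SD, n = 3) against 44.2 ± 6.01 CPM. AT3G47348 was at 21.1, 21.9 and 18.2 CPM in wild type and at 14.7, 13 and 14.7 CPM in the mutant, again without overlap, with a log2 fold change of -0.51 ± 0.19 (SE, edgeR quasi-likelihood test, adjusted p = 0.172). With the length trend removed its direction turned, to a log2 fold change of 0.38.

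The annotation gives neither snoRNA a box class, and their sequences are printed to show the boxes. Capitals mark box C (TGATGA) within 20 nt of the 5′ end and box D (CTGA) within 20 nt of the 3′ end, in the strand of the RNA in TAIR10.1 at chr2:2184567-2184645 (minus) and chr3:17445963-17446047 (plus).
AT2G05765: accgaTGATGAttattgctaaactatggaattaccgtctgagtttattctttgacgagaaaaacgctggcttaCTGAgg
AT3G47348: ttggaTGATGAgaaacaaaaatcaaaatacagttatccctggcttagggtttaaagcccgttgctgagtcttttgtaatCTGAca
Both boxes in these places were found in 49 of the 65 snoRNA features other than U3, which are 72 to 140 nt long with a median of 84 nt. AT2G05765 has 1 other copy in the genome with at least 90% identity, AT2G17295, which held 13 counts.

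Guide snoRNAs in tandem mostly had lower summed levels in atrx-1. Of the 80 members, 38 lay within 500 nt of another member on the same strand, in 15 groups. AT3G47342, AT3G47347 and AT3G47348 span 666 nt on chromosome 3, and their summed level was 31.6, 31.7 and 28.3 CPM in wild type and 22.4, 19.5 and 18.2 CPM in atrx-1, so the groups did not overlap. The 4 features from AT4G39361 to AT4G39366 span 814 nt on chromosome 4 and summed to 15.3, 16.4 and 19.2 CPM in wild type and to 14.9, 13.7 and 14.4 CPM in the mutant, again without overlap but close together. AT1G75163 and AT1G75166 summed to 10.8, 12 and 12.4 CPM in wild type and to 6.66, 3.6 and 6.38 CPM in atrx-1. The sums of 10 of the 15 groups were lower in every mutant library than in every wild-type library. Among single tested features this held for 11.4% of all and for 39.5% of protein-coding ones of at most 500 nt. The sums also hold members with too few counts to be tested, so these shares are not a like comparison. With the length trend removed, the tested members of the first 3 groups had log2 fold changes of 0.00 (AT3G47342), 0.36 (AT3G47347), 0.38 (AT3G47348), 0.50 (AT4G39363), 0.80 (AT4G39366) and -0.13 (AT1G75166), so that no tested member of the first pair of groups was then below 0. These sums were not tested further. Some of the 10 rest on few counts, such as 27 for AT3G01313 with AT3G01316 and 27 for AT1G19373 with AT1G19376. For AT3G01313 with AT3G01316 the nearest libraries were at 0.977 CPM (wild type 3) and 0.961 CPM (mutant 1). The smallest of the 15 sums, AT2G43137 to AT2G43139 with 5 counts, overlapped.

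Per 100 nt of RNA, U1 stood far above the rest in both genotypes. In wild type it was at 3129 ± 1918 CPM per 100 nt (SD, n = 3), followed by U2 with all copies at 346 ± 279 and U4.2 at 250 ± 136, which did not differ beyond their spread. U3, for which no RNA start was used, is left out of this order. Of the others AT2G05765 came next at 113 ± 30.3 CPM per 100 nt, and AT3G47348 and U12 followed at 24 ± 2.23 and 22.2 ± 19.4, again within their spread of each other. In atrx-1 the order began with U1 at 689 ± 267, and U4.2 at 99.9 ± 39.4 and U2 at 91.4 ± 43.9 were again indistinguishable. The other tested guide snoRNAs had means of 2.87 to 12.4 CPM per 100 nt in wild type. Counts for U2 and U4.2 come from rows longer than the RNA, 551 to 883 nt for U2 and 574 nt for U4.2.

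Over the whole table, 24 of the 80 members passed the filter on low counts, 8 snRNA and 16 snoRNA features. All 24 had a negative log2 fold change, as did 6742 of the 13819 tested features. Of 152 tested protein-coding features of at most 500 nt, 139 had one. None of the 24 members passed the adjusted threshold of 0.05 in edgeR's quasi-likelihood test. That test called 0.116% of the 13819 tested features, 16 in all and each of them lower. At an unadjusted p under 0.05, 17 of the 24 were lower, against 10.9% of all tested features and 76 of the 152 short protein-coding ones. The 24 include near-identical U2 copies and both U3 copies, which may share reads and are not separate observations. With the copies of U2 and of U3 summed, all 19 tested members were lower. At an unadjusted p under 0.05, 12 of these 19 were lower, against 1506 of 13812 features. DESeq2 gave 12 members an adjusted p and called 2 of these, U1 and AT2G05765. It called 3.90% of all features it gave an adjusted p. In 6 of the 24 every mutant library was below every wild-type library (U1, AT2G05765, AT1G75166, AT3G47342, AT3G47348 and SNOR30), against 11.4% of all tested features and 39.5% of the short protein-coding ones. The median log2 fold change was -1.86 for the 8 snRNA features and -0.68 for the 16 snoRNA features. It was 0.01 for all tested features and -0.61 for the 152 short protein-coding ones. Of the 24, 17 members had at least 10 counts in each mutant library. Only 10 members had at least 10 counts in each wild-type library.

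The 56 members that did not pass the filter included 5 snRNA and 51 snoRNA features. Their summed counts were at most 85, with a median of 14.5. Mean CPM was lower in atrx-1 for 34 of them and higher for 19, and 3 had no counts.

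Wild-type libraries spread widely. For 17 of the 24 tested members the range of the wild-type libraries on the log2 scale exceeded the difference between genotypes, and wild-type library 2 was the lowest wild-type library for 18. Without that library, edgeR's quasi-likelihood test called 8 of 26 tested members, all lower: U1, U4.2, U2.3, U2.7, U2.4, U2.6, U12 and AT2G05765, where it called 0.715% of all tested features. Their adjusted p-values were then 0.0317 to 0.0397, with log2 fold changes from -2.54 (U2.3) to -1.21 (AT2G05765). Without wild-type library 1 it called 2 members and 2.61% of all features, and without wild-type library 3 it called 1 member and 0.822%. Without any 1 mutant library it called no member and at most 0.0207% of features. DESeq2 was run in the same way after the data were seen. Without wild-type library 1, 2 or 3 it called 2, 9 and 1 of 12 members with an adjusted p. The shares of all features it gave an adjusted p were 4.66%, 5.69% and 1.82%. Without mutant library 1, 2 or 3 DESeq2 called 0 of 11, 1 of 11 and 1 of 12 members, beside 1.24%, 0.846% and 3.06%.

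Guide snoRNAs and U RNAs parted when the trend with feature length was removed from each library. The 8 snRNA features then kept negative log2 fold changes with a median of -1.31, and both U3 features stayed negative at -1.54 (U3B) and -0.95 (U3D). Of the 14 other tested snoRNA features 10 were above 0, from 0.00 (SNOR30) to 0.80 (AT4G39366), and 4 stayed below 0. U1 was at -1.35 (edgeR quasi-likelihood test, adjusted p = 0.270) and AT2G05765 at -0.13 (adjusted p = 0.869). No feature of the table passed the threshold in that fit. The length used was that of the row, which exceeds the RNA for U2 and U4.2. Their rows are 551 to 883 nt and 574 nt long, for RNAs of 195 and 153 nt. The rows of U3B and U3D are 702 and 361 nt long, and the stretch they share is 209 nt. Rows of the snoRNAs other than U3 are 72 to 140 nt long. The part of row length in the difference between U RNAs and guide snoRNAs was not tested.

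**Figure D3:**
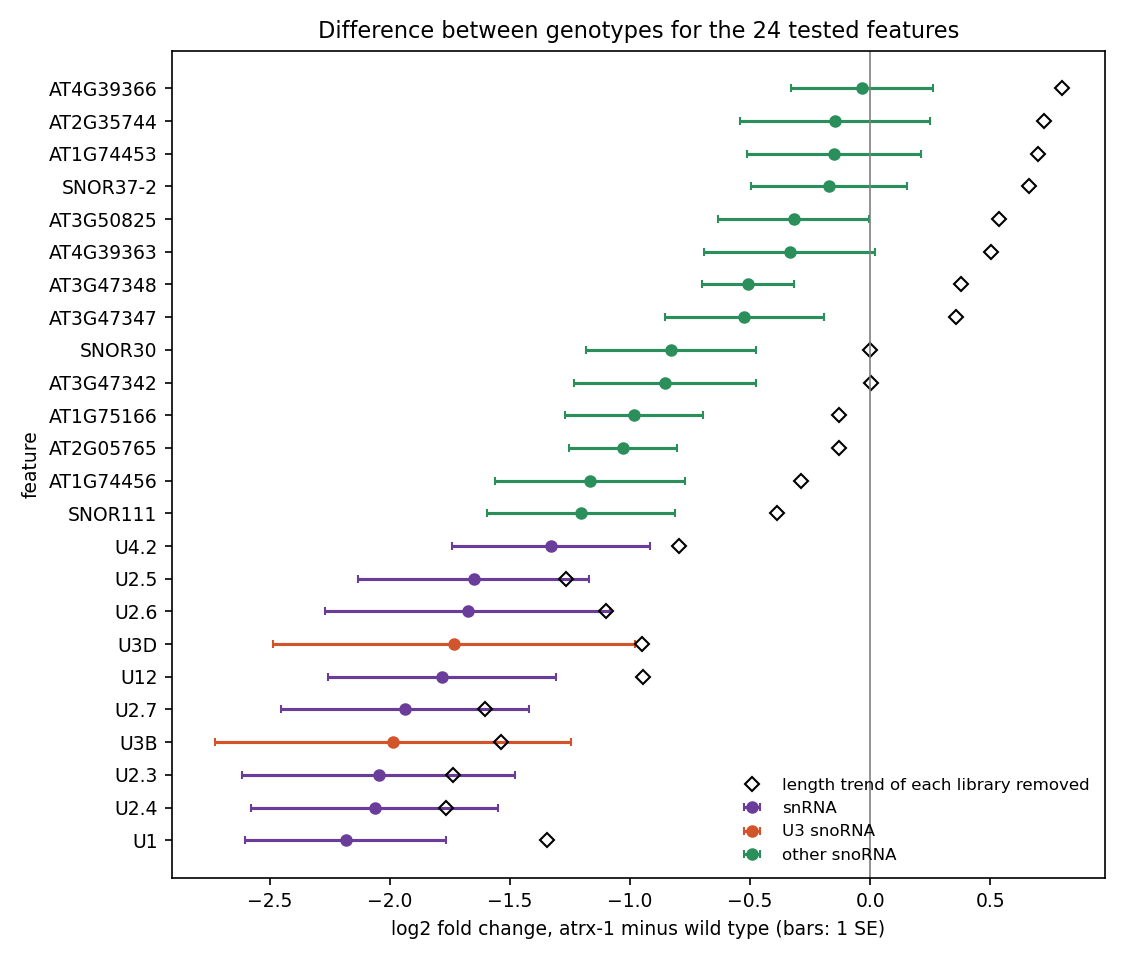
Log2 fold change (atrx-1 minus wild type) of the 24 tested members with 1 SE, snRNAs in purple, U3 in orange and other snoRNAs in green, and the same value with each library's length trend removed (open diamonds). Filled points lie below 0 for all 24, whereas with the trend removed all snRNAs and U3 stay below 0 and most other snoRNAs lie above 0.

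Ratios within a library do not use its total. The genotypes were apart in the ratios of U RNAs to snoRNAs only with U1 included. The log2 ratio of snRNA to snoRNA counts was 3.66, 3.77 and 3.44 in wild type and 2.75, 2.49 and 3.08 in atrx-1, with no overlap (difference -0.85, p = 0.1 by exact two-sided permutation, which cannot go lower with 3 against 3). This rested on U1: without it the difference was -0.29 (exact permutation p = 0.4) and the groups overlapped. U3 was also counted among the U RNAs, a grouping added after the data were seen. The log2 ratio of U RNAs to the other snoRNAs was then 5.41, 3.91 and 4.57 in wild type and 3.8, 2.87 and 3.6 in the mutant. The difference was -1.21 (exact permutation p = 0.1). Without U1 it was -0.65 and the groups overlapped (exact permutation p = 0.5).

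Against short mRNAs, guide snoRNAs kept their place. The log2 ratio of the snoRNAs other than U3 to protein-coding features of at most 500 nt was -4.97, -4.5 and -4.7 in wild type and -4.63, -4.75 and -4.67 in atrx-1, a difference of 0.04 with overlapping groups (exact permutation p = 0.8). For U snRNAs with U3 the same ratio was 0.44, -0.59 and -0.13 in wild type and -0.83, -1.88 and -1.07 in the mutant, with no overlap and a difference of -1.17 (exact permutation p = 0.1). For the whole class the log2 ratio differed by -1.37 against miRNA precursors and by -1.10 against short protein-coding features (exact permutation p = 0.1 each, 0.15 adjusted over 3 ratios). Without U1 these differences were -0.80 and -0.52, and the groups overlapped (exact permutation p = 0.3 and 0.4). Against other ncRNA features it differed by -0.56 with overlap (p = 0.2, exact permutation), and by 0.01 without U1.

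**Figure D4:**
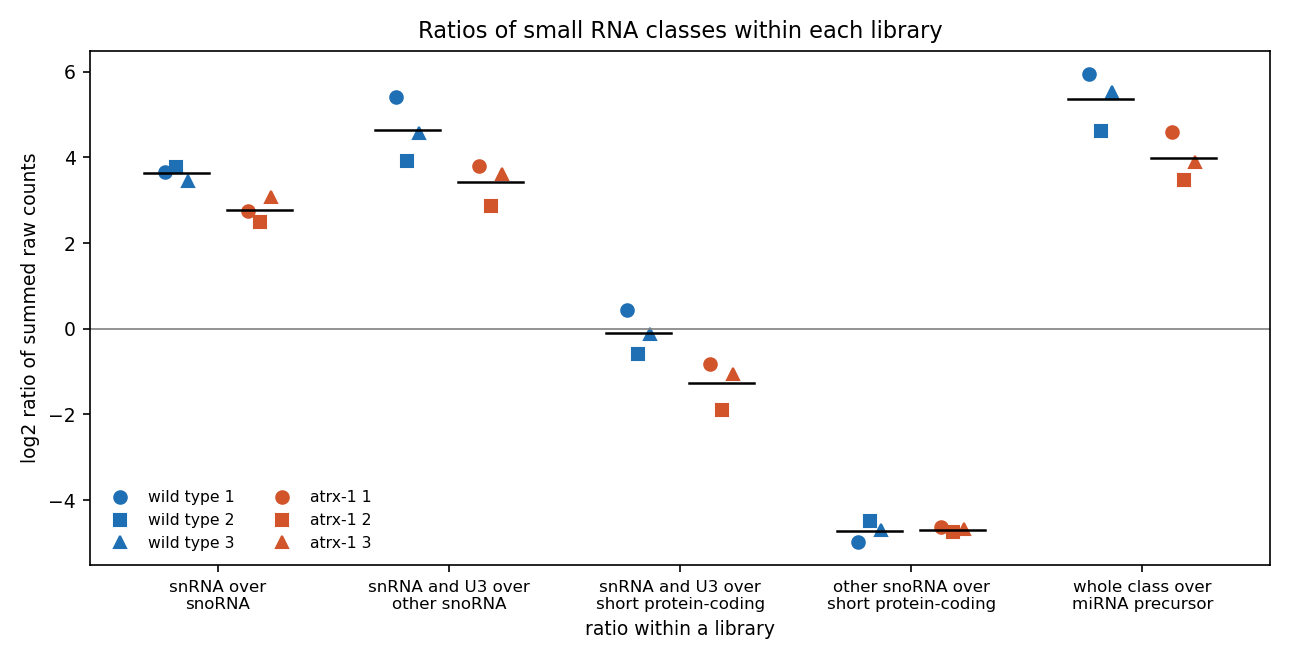
Log2 ratios of summed raw counts within each library, with wild type in blue, atrx-1 in orange, marker shape for the replicate number and a black bar for the mean. The genotypes are apart in the 4 plotted ratios that hold U1, though they nearly meet in the ratio to miRNA precursors. They overlap in the ratio of the other snoRNAs to short protein-coding features. The ratio of the class to other ncRNA features, which holds U1 and overlaps, is not drawn.

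As a share of all counts, snRNA features took 1.01%, 0.294% and 0.439% of the wild-type libraries and 0.213%, 0.0935% and 0.164% of the mutant libraries. The groups did not overlap (exact permutation p = 0.1), but without U1 they did (p = 0.3). Without members that overlap another row the snRNA shares were 0.854%, 0.267% and 0.351% in wild type. In the mutant they were 0.166%, 0.0740% and 0.132%, with no overlap between groups (exact permutation p = 0.1). snoRNA features took 0.0798%, 0.0216% and 0.0405% in wild type and 0.0317%, 0.0166% and 0.0194% in the mutant, with overlap (exact permutation p = 0.2). The 95% Wilson interval of the snoRNA share in the shallowest library ran from 0.0188% to 0.0248% and covers counting error only.

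Within the class, U1 took a lower and U4.2 a higher share in the mutant libraries. U1 took 76.5%, 84% and 71.3% of class counts in wild type and 65.8%, 65.1% and 70.3% in atrx-1, with no overlap. U4.2 took 4.7%, 4.5% and 8.18% in wild type and 9.07%, 9% and 8.97% in the mutant, also with no overlap. Both comparisons had p = 0.1 in the exact permutation test and 0.4 after adjustment over the 12 members compared. Per 100 U1 counts, U4.2 had 6.15, 5.35 and 11.5 counts in wild type and 13.8, 13.8 and 12.8 in atrx-1, and U12 had 0.858, 0.282 and 0.847 against 1.04, 1.11 and 1.05. U2 had 14.1, 5.31 and 16.1 per 100 U1 counts in wild type and 17.5, 15.4 and 13.4 in the mutant, and U3 had 6.55, 0.684 and 6.17 against 9.48, 4.68 and 4.21. Wild-type library 2 was the lowest library in all 4 ratios, and the groups overlapped for U2 and U3 with or without it.

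**Figure D5:**
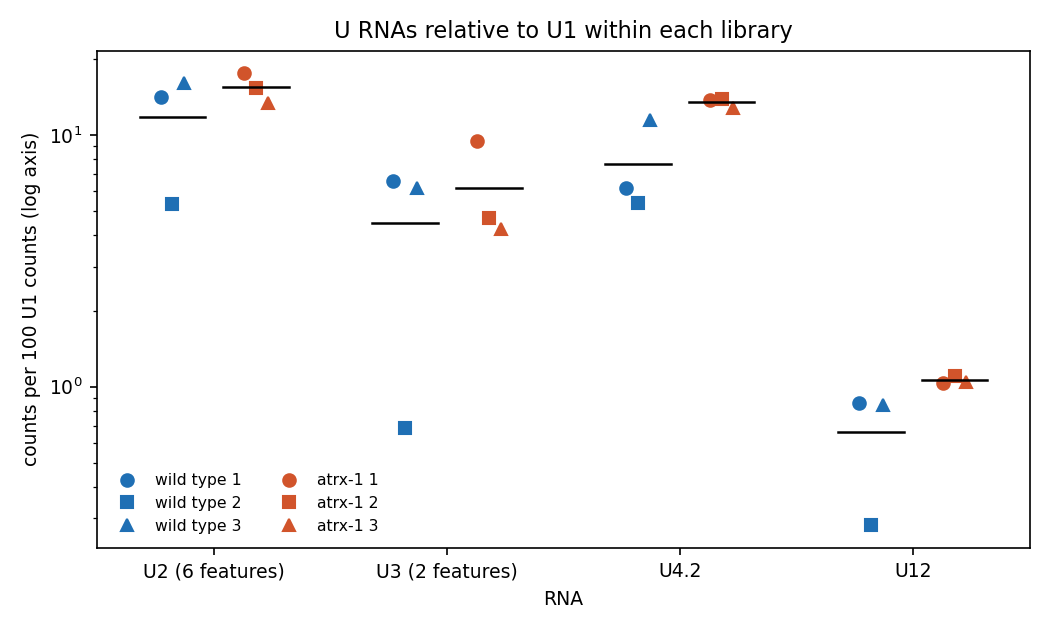
Raw counts of U2, U3, U4.2 and U12 per 100 U1 counts in each library on a log axis, with wild type in blue, atrx-1 in orange, marker shape for the replicate number and a black bar for the mean. Wild-type library 2 is lowest for each RNA, and the mutant libraries lie above all wild-type libraries for U4.2 and U12.

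Among genes for proteins that work with these RNAs, edgeR called none. Of 13 tested core and assembly proteins of snoRNPs none passed the threshold (edgeR quasi-likelihood test), 8 were lower and 5 higher, with a median log2 fold change of -0.09 against 0.01 for all features. FIB1 (AT5G52470, MED36B in the table), the methyltransferase of box C/D snoRNPs, was at 32.8, 31.7 and 42.4 CPM in wild type and at 63.5, 51.2 and 46.2 CPM in atrx-1, higher in each mutant library (log2 fold change 0.58 ± 0.20 SE, edgeR adjusted p = 0.147). RIN1, a RuvB-like assembly ATPase, had a log2 fold change of -0.46 ± 0.24 and NUC1, a nucleolin, of 0.39 ± 0.23 (SE, edgeR adjusted p = 0.307 and 0.382). FIB1 also hosts the snoRNA U60.1F, which had 7 counts in all.

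Of 32 tested spliceosomal snRNP proteins none passed the threshold in edgeR, 21 were lower and 11 higher, with a median log2 fold change of -0.38. SmD2b, a subunit of the Sm ring on the snRNAs, was at 46.3, 48.1 and 53.4 CPM in wild type and at 27 to 31.3 CPM in the mutant (log2 fold change -0.75 ± 0.18 SE, edgeR adjusted p = 0.0709). PRP8 and BRR2A, the scaffold and the helicase of the U5 snRNP, were higher, with log2 fold changes of 0.84 ± 0.20 and 0.90 ± 0.22 (SE, edgeR adjusted p = 0.0744 and 0.0750). DESeq2 called SmD2b lower (adjusted p = 0.0445) and PRP8 higher (adjusted p = 0.00734). These transcripts differ in length, with 686 nt for SmD2b and 7317 nt for PRP8, and with the length trend removed the median of the list was 0.00 and those 3 values were -0.35, 0.26 and 0.32.

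Of 11 tested factors of snRNA and snoRNA transcription, processing and turnover none passed the threshold in edgeR, 10 were higher and 1 lower, with a median log2 fold change of 0.31, or 0.05 with the length trend removed. CPSF73-I, an endonuclease of RNA 3′ end processing, was at 5.42, 5.46 and 7.82 CPM in wild type and at 12.4, 13.5 and 12.4 CPM in atrx-1 (log2 fold change 0.99 ± 0.25 SE, edgeR adjusted p = 0.0750). HEN2, an RNA helicase of nuclear exosome turnover, and COILIN, the scaffold of Cajal bodies where snRNPs and snoRNPs mature, had log2 fold changes of 0.84 ± 0.30 and 0.88 ± 0.40 (SE, edgeR adjusted p = 0.157 and 0.248).

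The authors' deposited table gave 79 members a log2 fold change, 58 of them negative, and 11 members an adjusted p-value, none of which was under 0.05. AT2G05765 had the smallest of these, 0.0905, with a log2 fold change of -0.67 in the authors' deposited table. U1 had no authors' value.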

How the data were processed

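Per the file headers, the authors deposited raw read counts per gene for 6 libraries, the input of every test here. They also deposited a normalized signal, not used, and their log2 fold change and p-value per gene. The submitters' processing notes name CASAVA 1.8.2, Bowtie2 2.1.0, TopHat2 2.0.14, HTSeq 0.6.1, DESeq2 1.6.3 and the build TAIR10. The sources used here do not give strand setting, annotation version or the handling of multi-mapping reads.

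Members are all rows with biotype snRNA or snoRNA; members, gene lists and tests were chosen with earlier results of these data known. The whole table was fitted with edgeR 4.0.16 in R 4.3.3 (TMM, filterByExpr, glmQLFTest, genotype only, Benjamini-Hochberg over 13819 features, threshold 0.05), and tested on simulated data. CPM use TMM-scaled totals, between 936243 and 14001726 counts before scaling. DESeq2 1.42.0, RLE factors, nuclear features only, other filters, a length-trend offset, a replicate block and leaving out each library were alternatives. Single values were compared by exact two-sided permutation over libraries. Described in full are the 12 members with the largest counts, which include the 5 smallest p and the 5 largest changes, and 3 genes per list by p. Copies were sought with BLAST+ 2.17.0, and sequences and names are from RefSeq TAIR10.1, in which all 80 members matched by identifier, 75 with the same coordinates.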

Additional observations from a re-analysis of the deposited data

How the results depend on the processing

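Calls among the members depended on the settings. The main edgeR test called 0 of 24 members and, of 13819 features, 16 lower and 0 higher. DESeq2 called 2 of 12 members with an adjusted p lower, and 173 of 5639 features lower and 47 higher. With no filter on low counts edgeR called 12 of 77 members, and 400 of 23043 features lower and 192 higher. RLE factors gave 0 of 24 members, with 36 of 13819 features lower and 2 higher. Nuclear features alone gave 0 of 24 members and 15 of 13679 features. A mean of at least 5 CPM gave 0 of 16 members and 13 of 10900 features. Removing the length trend gave 0 called features, turned the median of the tested snoRNAs to 0.18 and AT3G47348 to 0.38 on the log2 scale, and left no other named member reversed.

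Leaving out 1 library gave 0 (each mutant library) to 8 of 26 members called lower (wild-type library 2). Of 14371 to 14543 features, 0 to 210 were called lower and 0 to 168 higher, the most without wild-type library 1. DESeq2, added after the data were seen, called 0 to 9 members in the same way, and 0.846% to 5.69% of the features it gave an adjusted p (24 to 228 lower and 1 to 98 higher). Each of the 12 named members stayed lower in atrx-1 without any 1 library. Of 15 spliceosomal proteins with an adjusted p, DESeq2 called 1 lower and 1 higher. With no filter edgeR called 2 of 33 lower and 2 higher, and leaving out 1 library gave 0 to 2 of 32 in each direction. With no filter 1 of 14 transcription, processing or turnover factors was called higher.

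The log2 ratio to other ncRNA features turned to 0.013 without U1. The ratio of other snoRNAs to short protein-coding features ranged from -0.085 without wild-type library 1 to 0.15 without wild-type library 2. The difference in class share ranged over zero for U2.3 (-0.758 to 0.882 percentage points), U3B (-0.541 to 0.762), U3D (-0.0851 to 0.83), U2.7 (-0.096 to 0.417) and U2.4 (-0.218 to 0.271), each lowest without wild-type library 2. The cause of these changes was not tested.

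Replicate numbers did not pair the libraries: same-numbered libraries had correlations of deviations of 0.0644, 0.0571 and -0.0791. With the replicate block edgeR called 5 of 24 members and 34 of 13819 features, all lower. The paired difference of the snRNA share was -0.425 percentage points (exact sign-flip p = 0.25, the smallest that 3 pairs allow). Depth limits the guide snoRNAs most: in wild-type library 2 a count of 3 equals 3.28 CPM, near the level of many of them.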
